A study of Mus musculus with 6 samples.

Results

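The genes described here are the mouse potassium channel subunits, taken as every gene whose symbol starts with Kcn, then letters and a number. The rule found 98 of the 55471 genes in the table. Of these, 93 encode subunits, namely 40 voltage-gated, 15 inward rectifier, 14 two-pore, 8 calcium-activated and 16 auxiliary subunits, and 5 are non-coding or antisense transcripts of such genes. Poly(A) RNA of the left atrium was sequenced from adult male C57BL/6J mice, given as C57BL/6 in the genotype label, which were 10 weeks old at surgery. In the MR group mitral regurgitation, a leak of blood from the left ventricle back into the left atrium, was made by puncturing the anterior mitral leaflet under echocardiographic guidance. In the Sham group the apex was punctured and the leaflet left whole. Tissue was taken 2 weeks later, with 3 libraries in each group that the labels call biological replicates. All 6 mice thus share strain, sex, age, an apical or leaflet puncture and the interval after it, and no library comes from a mouse without surgery. The question addressed is how channel transcripts of the left atrium differ after the valve leak.

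Potassium channels let potassium leave the cardiac cell, and so set its resting potential and bring the action potential to its end. Pore-forming subunits assemble as tetramers or dimers, and auxiliary subunits alter how many channels reach the membrane and how fast they open and close. In the atrium, acetylcholine-gated, two-pore and rapidly activating voltage-gated channels are known for their part in the short action potential, and several of them are studied in atrial arrhythmia.

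The libraries held 14124407 to 20039490 counts, of which the subunits took between 0.198% and 0.295%. CPM (counts scaled to a common library size) values use library sizes scaled by the TMM method, and TPM values, which are scaled for gene length as well, are the authors' own. Differences are log2 fold changes of MR against Sham ± SE from edgeR's quasi-likelihood test, called at a Benjamini-Hochberg adjusted p below 0.05 over 15218 genes. The tissue was checked against markers. Atrial Nppa and Myl7 were abundant in every library and the ventricular gene Irx4 was at 0 in all 6. The libraries labelled MR stood apart in genes of atrial side, however. Bmp10, a gene of the right atrium, averaged 0.21 ± 0.061 CPM (SD, n = 3) over the Sham libraries and 3106 ± 241 CPM over the MR libraries. Of 7 right atrial and sinus node markers 6 were tested, and 4 rose (Bmp10, Shox2, Hcn4 and Tbx18). Their summed level of 44.3 to 48.3 CPM in Sham and 2984 to 3425 CPM in MR was mostly Bmp10, and without it the other markers summed to 44.1, 48.2 and 44.5 CPM in Sham and 84.2, 71.6 and 53.6 CPM in MR. This holds for all 3 MR libraries, so no comparison can be made without it, and its part in the results below was not tested. The 8 pan-cardiomyocyte markers summed to 50607 to 59164 CPM in Sham and 33377 to 46364 CPM in MR, with 4 of 8 lower and a median log2 difference of -0.49. In bulk tissue fewer cells of a type and less RNA per cell cannot be told apart.

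Potassium channel transcripts were split in their response. Of the 93 subunits 45 had enough counts to be tested, 8 were higher in MR, 15 were lower and 22 did not pass the test. The higher subunits made up 17.8% of those tested, beside 11.8% of all genes tested, and the lower ones 33.3%, beside 10.6% of all genes. The median log2 fold change over the 45 subunits was -0.15, against 0.00 over all genes. Of the 15 lower subunits 8 had a mean level of at least 10 TPM (Kcnj3, Kcnk3, Kcnj11, Kcng2, Kcnj12, Kcnq1, Kcnj8 and Kcnd2), and the largest differences were those of Kcnab3 (-1.49) and Kcnk2 (-1.22), both of low level. The higher group included the auxiliary subunits Kcnip2 and Kcnip3, the two-pore subunits Kcnk5 and Kcnk6, and the voltage-gated subunits Kcnc2, Kcnh3 and Kcna1, which were of low level. Neither non-coding transcript that was tested passed.

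**Figure D1:**
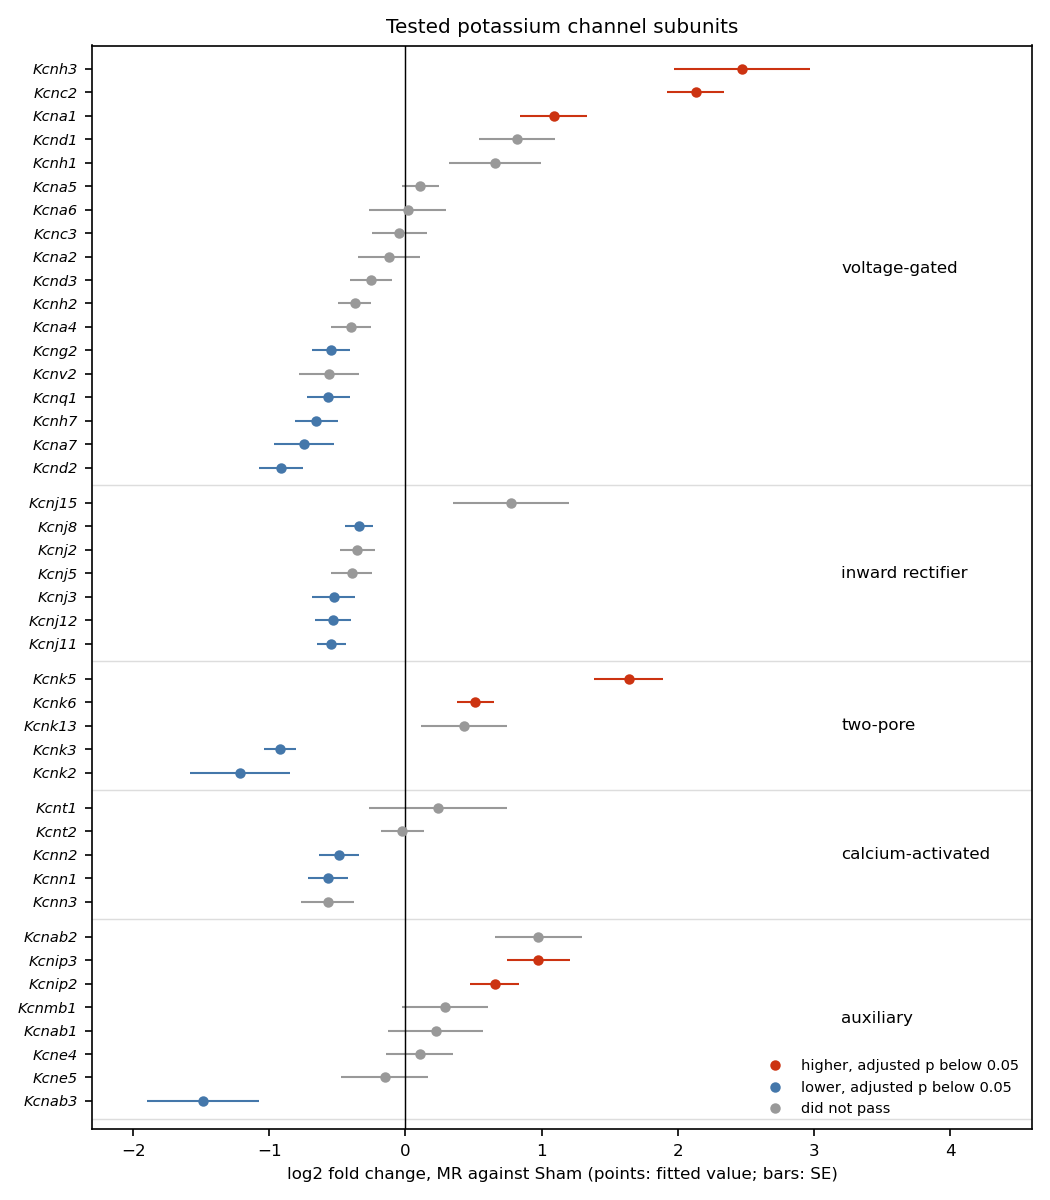
Log2 fold change of MR against Sham (horizontal axis) for 43 of the 45 tested subunits, grouped by class, with points for the fitted value and bars for its SE. Two-pore, voltage-gated and auxiliary subunits hold calls in both directions. Inward rectifier and calcium-activated subunits hold no red point, meaning none was called higher, but only 7 and 5 of them were tested. Over all genes 11.8% were called higher, so the lack of such a call among so few says little.

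These calls depended on how the libraries were scaled. With library totals alone the subunits split into 10 higher and 6 lower, beside 26.4% and 3.77% of all genes, and that scaling moved the median of all genes to 0.21. It ended the calls of Kcnj3, Kcnj8, Kcnj12, Kcnk2, Kcnn1, Kcnn2, Kcnq1, Kcng2 and Kcna7. With each library scaled to the geometric mean of 8 cardiomyocyte markers, a choice made after the data were examined, they split into 14 higher and 2 lower, and the median of all genes moved to 0.49. Under that scaling 52.8% of all genes tested were called higher and 0.953% lower. Kcna5, Kcnab2, Kcnd1, Kcnh1, Kcnj15 and Kcnk13 were called higher under it and not with TMM scaling, Kcnab2 and Kcnd1 under library totals too. Of the 45 subunits 10 turned from a difference below 0 to one above 0, of which 1, Kcnj8, had been called. All 8 subunits called higher were called higher under each of the 3 scalings, and their groups overlapped in neither CPM nor TPM. Both other scalings raised the median of all genes, so they could hardly end a higher call and are little check on it. TPM values carry no TMM factor and lean the same way as library totals. Of the 15 called lower, all were separate in CPM and 5 were separate in TPM (Kcnk3, Kcnd2, Kcna7, Kcnh7 and Kcnab3). The share of all genes separate in TPM was not counted. Only Kcnk3 and Kcnd2 of the 15 were also called lower relative to the cardiomyocyte markers. Counted by groups that did not overlap in CPM, 10 tested subunits (22.2%) were higher, beside 20.6% of all genes, and 19 (42.2%) were lower, beside 21.2% of all genes.

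**Figure D2:**
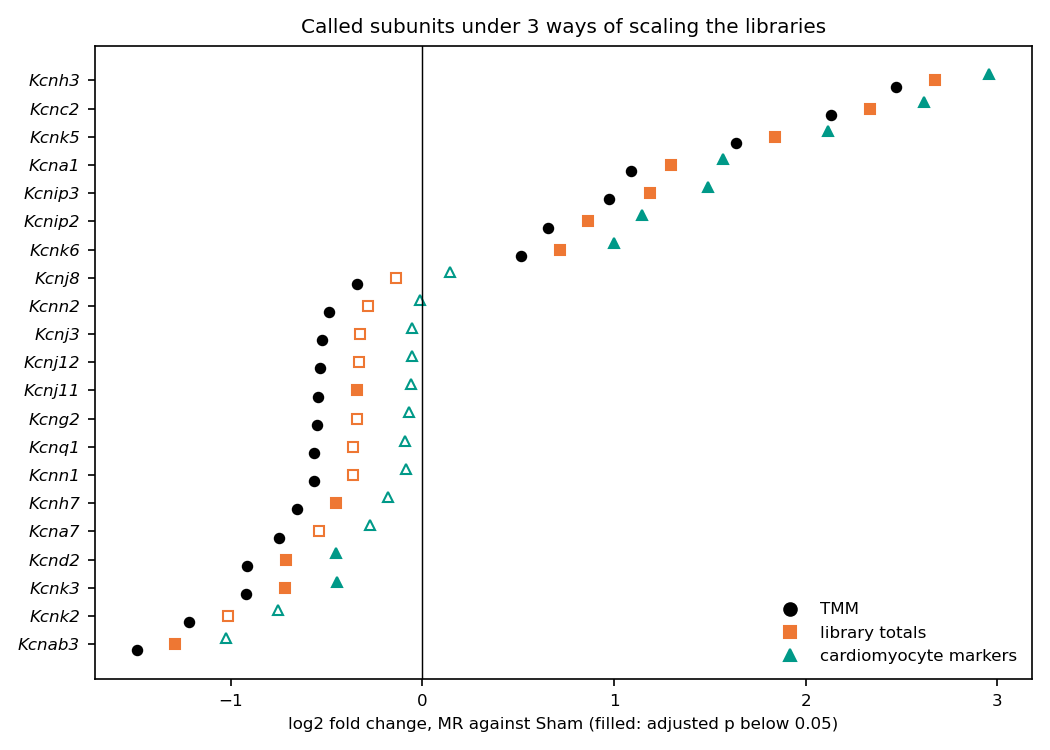
Log2 fold change of MR against Sham (horizontal axis) for 21 of the 23 called subunits under TMM scaling (circles), library totals (squares) and scaling to cardiomyocyte markers (triangles), filled where the adjusted p was below 0.05. The higher subunits shown stay filled under every scaling, and among the lower ones 2 triangles, Kcnk3 and Kcnd2, are filled. Squares and triangles lie to the right of the circles throughout, so those scalings could hardly end a higher call.

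Single libraries also moved these counts. The counts over all genes moved with them. The higher count was 3 without Sham 1, 7 without Sham 2 and 6 without Sham 3, beside 5.37%, 6.39% and 7.95% of all genes. It was 10 without MR 1, 6 without MR 2 and 7 without MR 3, beside 11.2%, 7.03% and 9.84%. The lower count was 8 without Sham 1, 5 without Sham 2 and 4 without Sham 3, beside 4.77%, 5.77% and 6.64% of all genes. It was 16 without MR 1, beside 1717 of 15542 genes, and 4 without MR 2 and 9 without MR 3, beside 5.52% and 7.15%. Without both MR 1 and MR 2, in which fat cell markers were high, 4 subunits were higher and 6 lower, beside 3.47% and 2.55% of all genes. Kcnk5, Kcnc2, Kcnj11, Kcnk3 and Kcnd2 were called in each of the 6 fits that left out 1 library. Kcnh3 was too, but it passed the count filter through the MR libraries, where it was high, so this is no support for its call. The share of all genes called in all 6 of these fits was not counted.

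Promoter windows of 4 subunits are shown first, chosen after their values were seen because they hold a pore and its auxiliary partner that moved in opposite directions and a pair of subunits that rose from low levels. Each covers 250 bases before and 50 bases after an annotated start of RefSeq on GRCm38.p6, an older build than that of the counts, and is written 5′ to 3′ on the gene's strand. Capitals mark the GC box GGGCGG, searched on both strands with any overlap allowed, which was held by 35.7% of the 32851 windows in the RefSeq set. Kcnd2 (chr6:21215096-21215395, plus strand) fell, while Kcnip2 (chr19:45816014-45816313, minus strand), which encodes its auxiliary partner, rose. Kcnk5 (chr14:20181733-20182032, minus strand) and Kcnc2 (chr10:112269767-112270066, plus strand, the first of 4 listed starts) rose from low levels.
Kcnd2: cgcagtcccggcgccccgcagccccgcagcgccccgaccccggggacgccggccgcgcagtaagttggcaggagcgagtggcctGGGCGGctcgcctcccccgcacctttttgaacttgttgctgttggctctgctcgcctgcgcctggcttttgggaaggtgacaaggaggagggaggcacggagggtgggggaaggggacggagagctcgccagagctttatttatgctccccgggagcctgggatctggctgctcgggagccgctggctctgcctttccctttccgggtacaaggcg
Kcnip2: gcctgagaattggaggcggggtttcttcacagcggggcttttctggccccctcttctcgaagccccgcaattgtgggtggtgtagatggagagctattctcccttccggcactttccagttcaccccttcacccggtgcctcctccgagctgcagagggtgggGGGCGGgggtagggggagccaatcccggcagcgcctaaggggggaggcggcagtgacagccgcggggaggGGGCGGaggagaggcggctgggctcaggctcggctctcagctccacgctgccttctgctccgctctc
Kcnk5: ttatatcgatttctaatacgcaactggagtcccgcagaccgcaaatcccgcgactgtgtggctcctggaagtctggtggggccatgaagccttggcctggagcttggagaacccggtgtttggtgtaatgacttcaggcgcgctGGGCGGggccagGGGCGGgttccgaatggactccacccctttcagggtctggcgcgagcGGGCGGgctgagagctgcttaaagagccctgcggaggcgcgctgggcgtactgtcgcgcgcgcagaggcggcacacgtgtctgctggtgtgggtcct
Kcnc2: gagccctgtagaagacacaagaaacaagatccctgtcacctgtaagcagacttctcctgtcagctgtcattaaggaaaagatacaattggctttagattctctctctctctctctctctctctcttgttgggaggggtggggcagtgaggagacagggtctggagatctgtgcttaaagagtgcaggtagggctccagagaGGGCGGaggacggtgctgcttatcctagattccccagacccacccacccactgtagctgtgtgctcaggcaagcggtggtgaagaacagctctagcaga
The Kcnd2 window had 26 CpG dinucleotides, a GC content of 68.7% and 1 GC box. Those of Kcnip2 and Kcnk5 had 18 and 26 CpG dinucleotides, with 2 and 3 GC boxes. Kcnc2 had 3 CpG dinucleotides and a GC content of 52.7%, at the median of all windows, where the median CpG number was 7. The E-box letters CANNTG were found once for Kcnip2, in 2 places for Kcnk5 and in 3 for Kcnc2, beside 72.3% of all windows with a match. TATAAA, present in 13.6% of all windows, was in none of the 4. A match is a description of letters only.

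By level, 13 subunits had a mean of at least 10 TPM over the 6 libraries and 35 had at least 1 TPM. Kcnj3 led with 466 ± 41.1 TPM in Sham and 407 ± 81.5 TPM in MR. Kcnk3 and Kcnj5 came next in Sham, at 195 ± 19.1 and 187 ± 15.9 TPM, and did not differ from each other beyond their spread there. In MR Kcnk3 stood at 129 ± 17.5 TPM and Kcnj5 at 179 ± 39.9 TPM. These 3 genes gave 64.2% to 65.2% of all subunit TPM in Sham and 56.5% to 62.2% in MR. Kcnj11 (95.7 ± 9.73 TPM in Sham) and Kcnh2 (90.9 ± 12.8 TPM) followed and overlapped, ahead of Kcng2 (58.9 ± 7.49 TPM). The sum over all subunits was 1310 ± 106 TPM in Sham and 1182 ± 176 TPM in MR, and the groups overlapped.

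**Figure D3:**
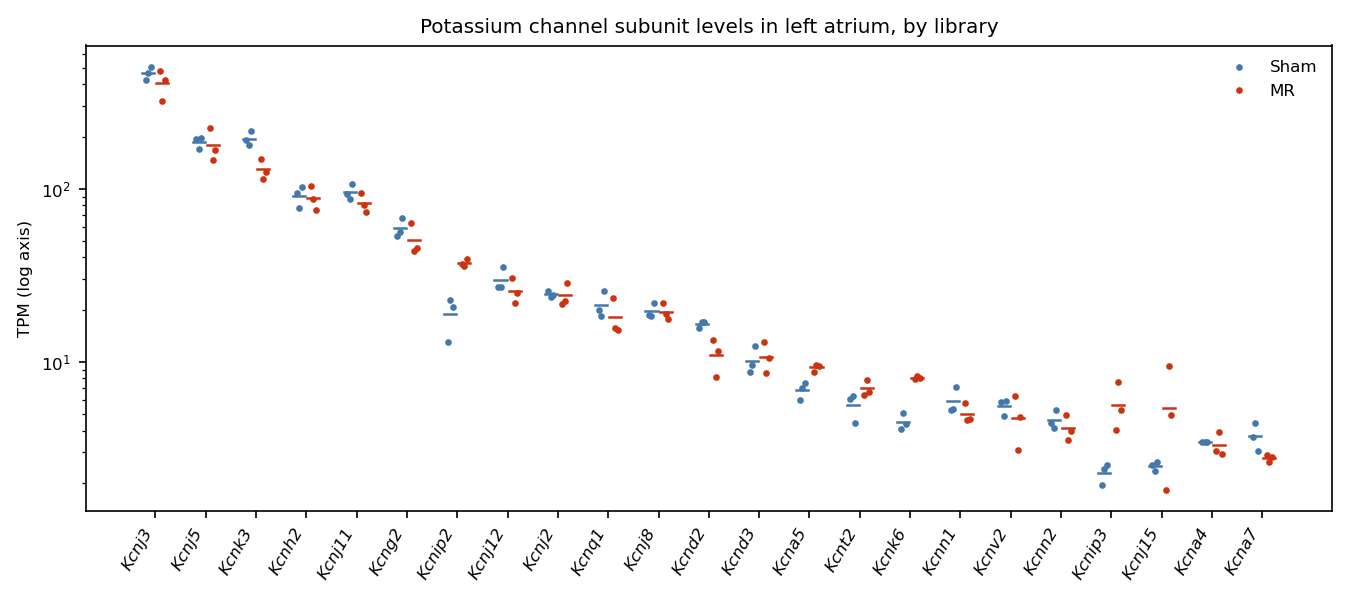
TPM (log axis) of 23 subunits with a mean of at least 3 TPM, ordered by level, with a point for each library and a short line for each group's mean. Kcnj3 lies highest in both groups. The groups do not overlap for 8 of the subunits shown, with MR lower for Kcnk3, Kcnd2 and Kcna7 and higher for Kcnip2, Kcnip3, Kcnk6, Kcna5 and Kcnt2. The share of all genes without overlap in TPM was not counted. In CPM it was 20.6% higher and 21.2% lower.

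The class sums showed where length-scaled levels moved. Auxiliary subunits summed to 20.8, 30.9 and 29.6 TPM in Sham and 48.4, 53.9 and 51.7 TPM in MR, a log2 difference of 0.94. The groups did not overlap, and Kcnip2 gave 69.5% of this sum in Sham and 72.5% in MR. Two-pore subunits summed to 202 ± 18.9 TPM in Sham and 143 ± 18.0 TPM in MR, a log2 difference of -0.50 without overlap, and Kcnk3 gave 96.3% and 90.3% of it. Both differences had p = 0.1 in the two-sided exact permutation test, the smallest p that 3 against 3 libraries allow, and 0.25 adjusted over 5 classes. Inward rectifier sums (825 ± 60.5 and 744 ± 128 TPM), voltage-gated sums (238 ± 25.4 and 226 ± 35.9 TPM) and calcium-activated sums (17.8 ± 0.639 and 18.0 ± 0.679 TPM) overlapped, with exact permutation p of 0.4, 0.6 and 0.6. Without Kcnk3 the two-pore difference was 0.91, in the other direction, so the class sum describes that gene.

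Among the voltage-gated pore subunits, 20 of 40 were tested, 4 rose, 6 fell and 10 did not pass. Kcnd2, a pore of the fast transient outward current that shapes early repolarization, had 39.7, 44.5 and 40.9 CPM in Sham and 26.2, 15.8 and 24.3 CPM in MR. Every MR library lay below every Sham library, and MR 2 was lowest. The log2 fold change was -0.91 ± 0.16 with an edgeR adjusted p of 0.00546. Scaled to cardiomyocyte markers it was -0.45, with an edgeR adjusted p of 0.0244. Kcnd3, which encodes the other main pore of that current, had 41.1, 46.3 and 55.2 CPM in Sham and 47.5, 31.1 and 41 CPM in MR. These groups overlapped, and the difference of -0.25 ± 0.16 did not pass, with an edgeR adjusted p of 0.269. Scaled to cardiomyocyte markers it was 0.22, above 0.

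Other voltage-gated subunits were lower by less than 2-fold. Kcnq1, the pore of the slow delayed rectifier current, had 40.1, 38.2 and 49.1 CPM against 36.6, 24.1 and 25.4 CPM, a change of -0.57 ± 0.16 with an edgeR adjusted p of 0.0311. The MR 1 library came close to the Sham values. Kcng2, a subunit known to modify other voltage-gated pores, changed by -0.55 ± 0.14 with an edgeR adjusted p of 0.0223. Kcnh7, a relative of Kcnh2, had 13.1, 16.1 and 14.8 CPM in Sham and 9.74, 7.3 and 10.7 CPM in MR, a change of -0.65 ± 0.16 with an edgeR adjusted p of 0.0184. Kcna7, of the Shaker family, changed by -0.75 ± 0.22 with an edgeR adjusted p of 0.0364.

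None of these 4 calls held in every fit with 1 library left out. The Kcnh7 call ended without Sham 2 or Sham 3, with an edgeR adjusted p of up to 0.0638. Kcng2 lost its call without Sham 2, Sham 3, MR 2 or MR 3, with an edgeR adjusted p of up to 0.0737. The Kcnq1 call remained without MR 1, and the edgeR adjusted p reached 0.107 without another library. For Kcna7 the call remained without Sham 3, and the edgeR adjusted p reached 0.132 otherwise. DESeq2 also gave Kcna7 no call, with an adjusted p of 0.0547. Relative to cardiomyocyte markers the differences of Kcnq1, Kcng2, Kcnh7 and Kcna7 were -0.09, -0.07, -0.18 and -0.27, and none passed.

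Other voltage-gated subunits of known cardiac currents did not pass. Kcnh2, the pore of the rapid delayed rectifier current, had 225, 189 and 232 CPM in Sham and 191, 160 and 149 CPM in MR, and its groups overlapped through MR 1. Its difference was -0.37 ± 0.12, with an edgeR adjusted p of 0.0526, and it passed without MR 1, with an edgeR adjusted p of 0.0189, and with DESeq2. Kcna5, the pore of the ultra-rapid atrial current, had 8.47, 10.2 and 10.2 CPM in Sham and 9.55, 10.4 and 11.1 CPM in MR. These CPM values overlapped, with a difference of 0.11 ± 0.14 and an edgeR adjusted p of 0.6. The TPM values did not overlap, at 5.99, 7.03 and 7.57 in Sham and 8.73, 9.60 and 9.50 in MR. Kcna5 was called higher relative to cardiomyocyte markers, by 0.60 with an edgeR adjusted p of 0.0158. The slow transient outward pore Kcna4 differed by -0.40 ± 0.15 (edgeR adjusted p = 0.0749). Both Kcnh2 and Kcna4 stood above 0 relative to cardiomyocyte markers, at 0.11 and 0.10.

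Of the 4 voltage-gated subunits that rose, Kcnc2, Kcnh3 and Kcna1 were of low level, and each is better known from neurons than from atrial muscle. Kcnc2, a Shaw-family pore of fast-spiking neurons, had 1.76, 1.68 and 2.6 CPM in Sham and 8.37, 7.75 and 10.2 CPM in MR. Every MR library was well above the Sham range. The change was 2.13 ± 0.21 with an edgeR adjusted p of 0.000511, and in TPM the level was 0.579 ± 0.171 in Sham and 3.15 ± 0.319 in MR. Kcnh3, an ether-a-go-go relative of the forebrain, had only 3, 3 and 2 counts in Sham and 13, 23 and 14 counts in MR. Its change was 2.47 ± 0.50 with an edgeR adjusted p of 0.00908. It passed the count filter through the MR libraries, where it was high, and was not tested with a filter of 1 CPM in 3 libraries. Kcna1, the Shaker pore of axons, had 2.08, 2.19 and 2.1 CPM against 5.69, 4.8 and 3.14 CPM, a change of 1.09 ± 0.25 with an edgeR adjusted p of 0.0142. Its MR 3 library lay nearest to the Sham values.

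Beside these rises, none of the 4 tested Schwann cell and neuron markers passed the test. That list of 8 genes summed to 12.3 to 16.7 CPM in Sham and 13.7 to 17.9 CPM in MR, and Chat, which marks cholinergic neurons, was at 0 in all libraries. Among those too low to test, Prph, a filament gene of peripheral neurons, had 2, 3 and 3 counts in Sham and 11, 9 and 14 in MR, without overlap, and Th had 2, 0 and 0 counts against 6, 3 and 3. The right atrial and sinus node markers rose in the same libraries, as given above. Of 8 adipocyte markers 5 were tested and 4 rose, with sums of 514 and 799 CPM in MR 1 and MR 2 and 140 CPM in MR 3, against 119 to 145 CPM in Sham. Without MR 1 and MR 2 the change of Kcnc2 was 2.34, with an edgeR adjusted p of 0.000836, while that of Kcna1 was 0.56, with an edgeR adjusted p of 0.289. In that fit Kcnh3 differed by 1.96 and did not pass, with an edgeR adjusted p of 0.156. The Kcna1 call also ended without Sham 1, with an edgeR adjusted p of 0.0612. The part of neurons, adipocytes and right atrial or nodal cells in these rises was not tested.

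**Figure D4:**
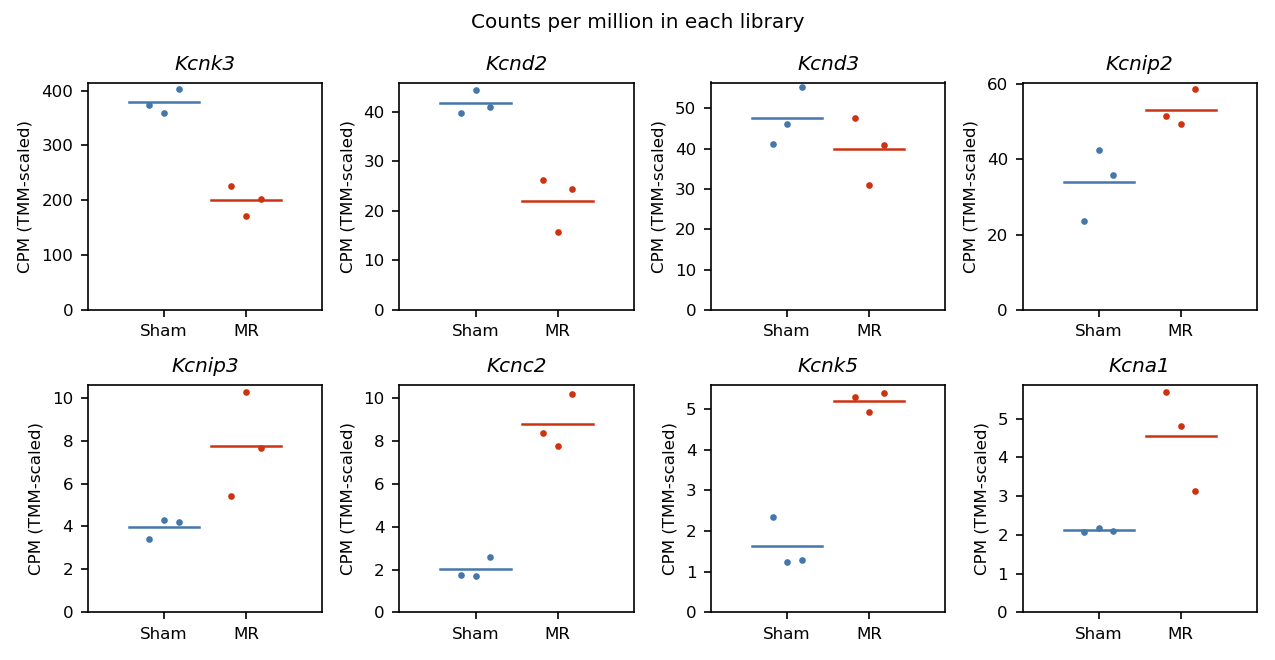
CPM on TMM-scaled library sizes (vertical axes start at 0) for 8 subunits in the 3 Sham and 3 MR libraries, with a point for each library and a line for each group's mean. Kcnk3 and Kcnd2 are lower in every MR library, Kcnd3 overlaps, and Kcnip2, Kcnip3, Kcnc2, Kcnk5 and Kcna1 are higher in every MR library.

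Of the 15 inward rectifier subunits, 7 were tested, none rose, 4 fell and 3 did not pass. Over all genes tested 11.8% rose and 10.6% fell, so the lack of a rise among 7 says little. Kcnj3 and Kcnj5 form the acetylcholine-gated channel through which the vagus slows the heart. Kcnj3, the most abundant subunit, had 1094, 1236 and 1243 CPM in Sham and 957, 629 and 897 CPM in MR. All MR libraries were lower, MR 2 most so, and the change was -0.53 ± 0.16 with an edgeR adjusted p of 0.0391. This call remained without MR 1 and was lost when any other library was left out, with an edgeR adjusted p of up to 0.108. Its partner Kcnj5 had 449, 401 and 435 CPM against 399, 257 and 321 CPM, and the difference of -0.39 ± 0.15 missed the threshold (edgeR adjusted p = 0.0825). Without MR 1 it was -0.58 and passed, with an edgeR adjusted p of 0.0142, and it passed with DESeq2 (adjusted p = 0.0382). It was 0.07, above 0, relative to cardiomyocyte markers. The TPM ratio of Kcnj3 to Kcnj5 overlapped between groups.

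The ATP-sensitive channel, which opens when the cell runs short of energy, has its pore from Kcnj11 or Kcnj8. Kcnj11 had 169, 163 and 184 CPM in Sham and 133, 111 and 110 CPM in MR, without overlap. Its change of -0.55 ± 0.11 had an edgeR adjusted p of 0.00797, and it was called in each fit with 1 library left out. Kcnj8, the pore also known from pericytes and vascular smooth muscle, had 23.4, 23.9 and 26 CPM against 21.2, 18.2 and 18.4 CPM, a change of -0.34 ± 0.10 with an edgeR adjusted p of 0.0399. That call remained without MR 1 and was lost when any other library was left out, with an edgeR adjusted p of up to 0.119, and DESeq2 gave an adjusted p of 0.0701. Relative to cardiomyocyte markers the differences of Kcnj11 and Kcnj8 were -0.06 and 0.14, so that Kcnj8 turned direction, and neither passed. Of 10 pericyte and smooth muscle markers, 3 rose and 1 fell, and their sums overlapped at 637 to 678 CPM in Sham and 553 to 646 CPM in MR. The part of mural cells in the Kcnj8 difference was not tested. The regulatory sulphonylurea receptor genes Abcc8 and Abcc9 differed by -0.27 and 0.14 and did not pass (edgeR adjusted p = 0.181 and 0.452).

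Kcnj2 and Kcnj12 encode pores of the classical inward rectifier current that holds the resting potential. Kcnj12 had 36.7, 37.6 and 45.4 CPM in Sham and 32.1, 22.5 and 28 CPM in MR, a change of -0.53 ± 0.13 with an edgeR adjusted p of 0.0211. The call ended without Sham 3 or MR 2, with an edgeR adjusted p of up to 0.0749, and relative to cardiomyocyte markers the difference was -0.05. Kcnj2 had 68.8, 65.7 and 62.5 CPM against 45.1, 46.1 and 62.8 CPM. Its MR 3 library lay within the Sham range while the other two lay below it, and the difference of -0.35 ± 0.13 did not pass (edgeR adjusted p = 0.0736). Without MR 3 it was -0.53 and passed, with an edgeR adjusted p of 0.0113, and relative to cardiomyocyte markers it was 0.13, above 0. Relative to Sham, Kcnj15 was spread most in MR, at 4.38, 22.6 and 12.6 CPM, and did not pass (edgeR adjusted p = 0.215); it was chosen after its values were seen.

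Two-pore subunits carry background current, and 5 of 14 were tested, of which 2 rose, 2 fell and 1 did not pass. Kcnk3, an acid-sensitive background pore abundant in the atrium, had 373, 360 and 403 CPM in Sham and 225, 171 and 203 CPM in MR. The groups were far apart, with the highest MR library below the lowest Sham library by more than the spread within either group. The change was -0.92 ± 0.12 with an edgeR adjusted p of 0.00181, and it ranged from -1.03 to -0.82 over the fits with 1 library left out. Relative to cardiomyocyte markers it was -0.44, with an edgeR adjusted p of 0.00817. Kcnk2, a pore that opens with membrane stretch, had 2.5, 3.06 and 3.4 CPM against 2.22, 0.768 and 0.898 CPM, a change of -1.22 ± 0.37 with an edgeR adjusted p of 0.0406. Its MR 1 library was near the Sham values. The call remained without MR 1, where the change was -1.83, and was lost without any other single library, with an edgeR adjusted p of up to 0.121.

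The rising two-pore subunits were at low level. Kcnk5, an alkaline-sensitive pore known from kidney and other epithelia, had 2.34, 1.24 and 1.3 CPM in Sham and 5.3, 4.93 and 5.39 CPM in MR. Each MR library was more than 2-fold above the highest Sham library, and the change was 1.64 ± 0.25 with an edgeR adjusted p of 0.00322. Without MR 1 and MR 2 it was 1.68, with an edgeR adjusted p of 0.0187. Kcnk6, a background pore, had 8.31, 10.7 and 8.53 CPM against 12.6, 12.9 and 13.7 CPM, a change of 0.51 ± 0.14 with an edgeR adjusted p of 0.0247. Its call ended without Sham 1, Sham 3, MR 2 or MR 3, with an edgeR adjusted p of up to 0.0879. Markers of other cells were also higher in MR. All 5 epicardial and mesothelial markers rose, from sums of 118 to 221 CPM to 395 to 653 CPM, and 7 of 8 macrophage and monocyte markers rose, from 176 to 197 CPM to 284 to 354 CPM. Their part in the rises of Kcnk5 and Kcnk6 was not tested.

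Of the 8 calcium-activated subunits and their sodium-activated relatives, 5 were tested, none rose, 2 fell and 3 did not pass. With 11.8% of all genes tested rising and 10.6% falling, the lack of a rise among 5 says little. The small-conductance genes Kcnn1, Kcnn2 and Kcnn3 link calcium to late repolarization in the atrium. Kcnn1 had 11.9, 12.4 and 15.3 CPM in Sham and 10.1, 7.94 and 8.73 CPM in MR, a change of -0.57 ± 0.15 with an edgeR adjusted p of 0.0235. Kcnn2 had 16.2, 15.7 and 18.5 CPM against 14, 9.92 and 12 CPM, a change of -0.49 ± 0.14 with an edgeR adjusted p of 0.0371. Both had MR 1 closest to Sham. Kcnn3 differed by -0.57 ± 0.19 and did not pass (edgeR adjusted p = 0.0597), although its groups did not overlap, and it passed without MR 3, with an edgeR adjusted p of 0.0424. The Kcnn1 call ended without Sham 3, MR 2 or MR 3, with an edgeR adjusted p of up to 0.0744, and the Kcnn2 call without any 1 library other than MR 1, up to 0.108. Relative to cardiomyocyte markers Kcnn1 and Kcnn2 differed by -0.08 and -0.01. Kcnt2, a sodium-activated pore and by TPM the most abundant of the class, had overlapping groups in CPM and a difference of -0.02 ± 0.16 (edgeR adjusted p = 0.928). In TPM its groups did not overlap, at 6.06, 6.30 and 4.45 in Sham and 6.45, 7.87 and 6.68 in MR, and relative to cardiomyocyte markers it differed by 0.46 without passing. Kcnma1, the large-conductance pore, had 10 counts over the Sham libraries and 7 over the MR libraries, too few to test.

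Of the 16 auxiliary subunits, 8 were tested, 2 rose, 1 fell and 5 did not pass. Kcnip2, the calcium-binding subunit that brings Kcnd2 and Kcnd3 pores to the membrane, had 23.6, 42.6 and 35.8 CPM in Sham and 51.6, 49.5 and 58.7 CPM in MR. All MR libraries lay above the Sham range, in which Sham 1 was lowest. The change was 0.65 ± 0.18 with an edgeR adjusted p of 0.0278. The call ended without Sham 1, Sham 3 or MR 3, with edgeR adjusted p of 0.0524, 0.0652 and 0.076. In the authors' TPM the level was 18.8 ± 5.17 in Sham and 37.2 ± 1.81 in MR, and relative to cardiomyocyte markers the log2 difference was 1.15. Kcnip3, a related calcium-binding protein also known as a transcriptional repressor, had 3.41, 4.31 and 4.19 CPM against 5.43, 10.2 and 7.63 CPM. Its change of 0.98 ± 0.23 had an edgeR adjusted p of 0.0166, which became 0.0782 without Sham 1.

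Kcnab3, a beta subunit of Shaker-type channels, had 0.959, 1.53 and 1.01 CPM in Sham and 0.327, 0.256 and 0.599 CPM in MR. Its change of -1.49 ± 0.41, with an edgeR adjusted p of 0.0283, rests on few counts. The call remained without MR 3 and was lost without any other library, with an edgeR adjusted p of up to 0.1. Kcnab1, Kcne4, Kcne5 and Kcnmb1 did not pass, with differences of 0.22, 0.10, -0.15 and 0.29. Kcnab2, named after its values were seen, differed by 0.98 ± 0.32 without passing (edgeR adjusted p = 0.0538). Kcne1, the partner of Kcnq1 in the slow delayed rectifier, had 8, 4 and 5 counts in Sham and 8, 16 and 12 counts in MR, too few for the test across genes. The ratio of its summed counts, corrected for library size, was 1.92 with an exact 95% Clopper-Pearson interval of 1.05 to 3.65, which covers counting error only. Kcne3 had 6 counts against 23, a ratio of 3.48 with an interval of 1.38 to 10.5. With no filter on low counts Kcne1 and Kcne3 did not pass, with edgeR adjusted p of 0.305 and 0.13.

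Ratios between subunits that share a channel do not depend on how libraries are scaled. The TPM ratio of Kcnd2 to Kcnd3 was 1.80, 1.79 and 1.38 in Sham and 1.02, 0.942 and 1.10 in MR, so Kcnd2 led in every Sham library and the pores were near parity in MR. The ratio of Kcnip2 to Kcnd2 was 0.834, 1.34 and 1.23 in Sham and 2.77, 4.41 and 3.38 in MR, a log2 difference of 1.64, or 3.11-fold. Every MR library had at least 2 Kcnip2 transcripts for each Kcnd2 transcript. The ratio of Kcnj11 to Kcnj8 was 5.01, 4.74 and 4.90 in Sham and 4.34, 4.22 and 4.14 in MR, a small log2 difference of -0.20 without overlap. Each of these had p = 0.1 in the two-sided exact permutation test, the smallest possible, and 0.15 adjusted over 6 ratios. Kcnj3 to Kcnj5 (log2 difference -0.13, exact permutation p = 0.3) and Kcnj2 to Kcnj12 (0.17, exact permutation p = 0.5) overlapped. Kcnq1 to Kcne1 differed by -1.53 without overlap (exact permutation p = 0.1), which became -0.58 with 1 TPM added to both, since Kcne1 had few counts.

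**Figure D5:**
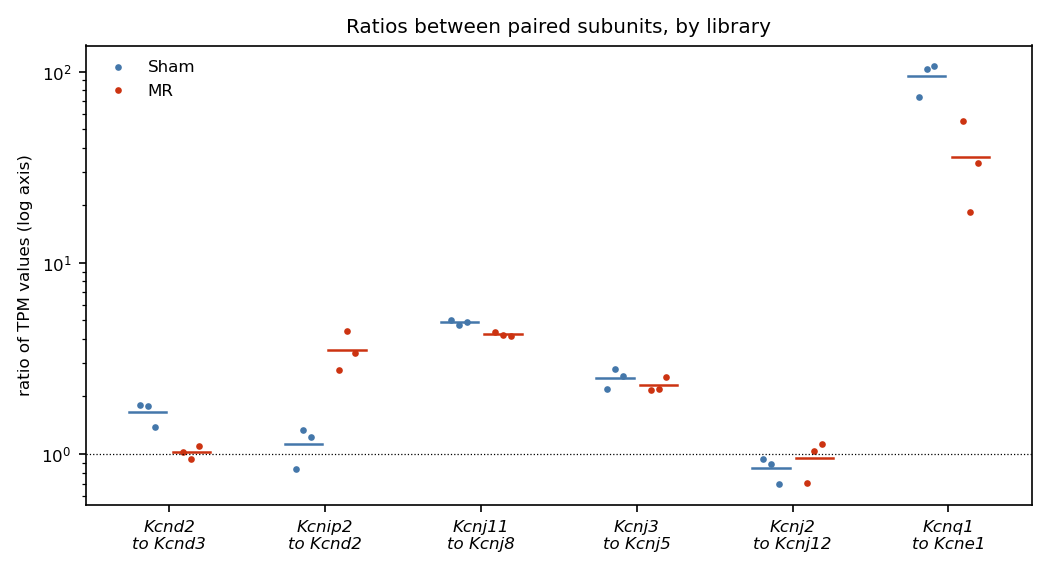
Ratio of TPM values (log axis) between paired subunits in each library, with points for the 3 Sham and 3 MR libraries, lines for group means and a dotted line at a ratio of 1. Kcnip2 to Kcnd2 lies at 2.77 to 4.41 in MR and at 0.834 to 1.34 in Sham, and the ratios of Kcnj3 to Kcnj5 and Kcnj2 to Kcnj12 overlap.

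The remaining 48 subunits were not tested, since 7 had no count in any library, 22 had 1 to 10 counts in all and 19 had more, up to 62. With no filter on low counts, 1 of them was called higher and none lower. That was Kcnc4, a Shaw-family pore like Kcnc2, with 0 counts in each Sham library and 9, 7 and 12 counts in MR. Against a floor of 3 counts in each Sham library it was at least 2.83-fold higher, and it is named because it was the sole such call, after its values were seen. Kcnn4, the intermediate-conductance calcium-activated pore known from blood cells and fibroblasts, had 18 counts against 44. The ratio was 2.22 with an exact 95% interval of 1.26 to 4.08. Without MR 1 it was tested and called higher. It passed the count filter there through MR 2 and MR 3 (19 and 18 counts), where it was high, so that call is no separate support. Kcna3, a pore of lymphocytes and macrophages, had 1 count against 12, a ratio of 10.9 with an interval of 1.61 to 466, and was chosen after its values were seen. Both intervals cover counting error only. With no filter Kcnn4 and Kcna3 did not pass, with edgeR adjusted p of 0.15 and 0.0882. Lymphocyte markers, of which 3 of 8 were tested and 2 rose, summed to 2.24 to 3.40 CPM in Sham and 5.54 to 23.8 CPM in MR, and their part in these counts was not tested.

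Genes that regulate the channels were taken from a list of 28 partners, of which 23 were tested. Of these 1 rose and 5 fell, beside 11.8% and 10.6% of all genes tested. Their median log2 difference was -0.15, against 0.00 over all genes. In the vagal pathway to Kcnj3 and Kcnj5, the muscarinic receptor gene Chrm2 had 524, 563 and 567 CPM in Sham and 436, 275 and 363 CPM in MR, a change of -0.62 ± 0.15 with an edgeR adjusted p of 0.019. Rgs6, whose protein shortens G-protein signalling to that channel, changed by 0.86 ± 0.13 (edgeR adjusted p = 0.00324), and its obligate partner Gnb5 by -0.44 ± 0.09 (edgeR adjusted p = 0.01). The receptor was lowest in MR 2, as Kcnj3 and Kcnj5 were, and the groups of all 3 regulators were apart. Lrrc38, an auxiliary protein of large-conductance channels, changed by -2.18 ± 0.41 (edgeR adjusted p = 0.00687), caveolin gene Cav3 by -0.78 ± 0.10 (edgeR adjusted p = 0.00157) and Amigo1, which encodes a membrane partner of voltage-gated channels, by -0.39 ± 0.10 (edgeR adjusted p = 0.0267). The pacemaker channel genes, which are relatives of these channels, split. Hcn4 had 2.24, 2.63 and 2.96 CPM in Sham and 22.3, 10.3 and 3.59 CPM in MR, a change of 2.20 ± 0.54 (edgeR adjusted p = 0.0189) that was carried by MR 1 and MR 2. It was 1.38 without MR 1 (edgeR adjusted p = 0.0298) and 0.46 without both (edgeR adjusted p = 0.378), and the call also ended without any 1 Sham library, with an edgeR adjusted p of up to 0.088. Hcn2 changed by -0.92 ± 0.22 (edgeR adjusted p = 0.0165).

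In the authors' deposited table, 65 subunits have an adjusted p, and 10 of them are higher and 19 lower at 0.05. The share of all genes that pass there was not counted. These values come from the same 6 libraries, so they are no independent check. The authors' deposited table gives log2 fold changes of -1.03 for Kcnk3, -1.06 for Kcnd2, 0.44 for Kcnip2, 1.87 for Kcnc2 and 1.38 for Kcnk5. Kcna1 (0.59) and Kcnh7 (-0.44), called here, are above 0.05 there, with authors' adjusted p of 0.0529 and 0.102. Below 0.05 there but not called here are Kcnj5, Kcnh2, Kcna4, Kcnn3, Kcnv2, Kcnab2 and Kcnj15, and Kcnc4, which was not tested here.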

How the data were processed

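Left atrial poly(A) RNA libraries of 3 Sham and 3 MR mice were compared. The deposited table holds counts per gene as whole numbers, taken as not normalized. Its TPM values were made by the authors, per the file headers, and each column sums to 1000000. The log2 fold changes and p-values deposited by the authors are quoted only as the authors' values, and their tool is not stated. The submitters' processing notes name HISAT2 2.1.0, featureCounts of Subread 2.0.1, fastp, SAMtools, DESeq2 and build GRCm39, without order or settings. The library kit was stranded, per the labels' protocols, but neither which annotation nor which strand option served the counting is given in the sources used here. Reads of overlapping or antisense genes therefore cannot be told apart. Unused columns of library values numbered 0.

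Counts of all genes were tested in edgeR 4.0.16 under R 4.3.3 by its quasi-likelihood test (TMM, filterByExpr, 2 groups, no covariates, Benjamini-Hochberg adjusted p below 0.05 over 15218 genes). The SE is the size of the coefficient over the root of its F statistic. Class sums and ratios of TPM were compared by two-sided exact permutation tests over the 10 splits, which cannot go below p = 0.1. Alternatives were DESeq2 1.42.0, its size factors, library totals, limma-voom (limma 3.58.1), a stricter filter (1 CPM or more in 3 libraries), no filter, a test against 1.5-fold (glmTreat), a replicate block, other TPM scalings and pseudocounts, and libraries left out. Scaling to cardiomyocyte markers was chosen after the data were examined. A floor of 3 counts corresponds to 0.15 to 0.212 CPM, which limits what low genes can show.

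The members, classes, gene lists and ratios were chosen with earlier results of these data known. Named members were those past the threshold, the 3 most abundant of each class and a list of cardiac channel genes, and others are marked where named; the results of some genes are not reported here, though counts and sums include them. No libraries were duplicates, since pairs of 1 group had a chi-square per degree of freedom of 13.0 to 22.8. The main edgeR fit was also run on a simulated set with known changes, and the other fits were not. At 1.5-fold and 2-fold it recovered 46% and 74% of 50 changed genes each, and 17 unchanged genes were called. That set changed far fewer genes than the 3408 called in the data, all above 1 CPM and as many up as down. It held no shift in scaling between the groups. These rates may thus not hold for the data and say nothing on the calls that depended on scaling. Differences near 1.5-fold that did not pass may still have been missed. RefSeq promoter windows matched 70 of the Kcn symbols, 12 of them among the 23 called subunits.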

Additional observations from a re-analysis of the deposited data

How the results depend on the processing

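The counts of subunits called higher and lower (8 and 15 of 45) were the same with DESeq2 and with DESeq2 size factors. They stayed within 1.5 times with limma-voom (9 and 15) and the 1 CPM filter (7 and 14 of 40 tested). With no filter they were 11 and 20, also within 1.5 times but of 86 subunits tested. They were 2 and 0 against a 1.5-fold change, with 6 lower for library totals, 4 and 6 without MR 1 and 2, a fit that gives the single MR library the spread of the other group, and 14 and 2 with cardiomyocyte-marker scaling. Leaving out 1 library gave 3 to 10 higher and 4 to 16 lower. DESeq2 shared 21 of the 23 calls, without Kcna7 and Kcnj8 and with Kcnj5 and Kcnh2 instead. The one called subunit that turned direction with cardiomyocyte-marker scaling was Kcnj8, at 0.14, and 9 uncalled subunits also turned sign, from below to above 0, with 4 doing so for library totals. Rescaling TPM by the TMM factors moved the log2 differences of class sums to -0.19 (calcium-activated), -0.37 (inward rectifier), -0.71 (two-pore) and -0.29 (voltage-gated). The factors were 0.914 to 0.941 in Sham and 1.04 to 1.11 in MR, so every class moved down by the same amount. The auxiliary sum, not listed here, did so too. Leaving out the most abundant member moved the calcium-activated sum to -0.15 and the two-pore sum to 0.91. With 1 TPM added, the Kcnq1 to Kcne1 ratio moved to -0.58. The cause of the shifts in calls was not tested.

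Same-numbered libraries did not deviate together (correlations -0.00981, -0.0101 and -0.186), so the numbers were not taken to pair samples. With a replicate block 9 subunits were higher and 15 lower, beside 11.2% and 9.09% of all genes. Of the calls 21 were shared (Kcna7 and Kcnj8 were lost, Kcnj5, Kcnab2 and Kcnv2 gained). Depth left 48 subunits with too few counts to test, of which Kcnc4 passed with no filter and Kcnn4 without MR 1. Kcnn4 entered that fit through the MR libraries in which it was high, so its call is no separate support.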
